A study of Mus musculus with 4 samples.

Results

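The 9 genes described here encode enzymes that add or remove methyl groups on H3K36, a lysine in the tail of histone H3. They were taken by name (4 writers, Setd2, Nsd1, Ash1l and Setmar, and 5 erasers, Kdm2a, Kdm2b, Kdm4a, Kdm4b and Kdm4c), and each name matched 1 of the 34745 genes in the deposited expression table. RNA sequencing had been done on naive CD4+ T cells from mouse spleen (strain C57BL/6) held for 3 days in a culture that drives differentiation into regulatory T (Treg) cells. The libraries numbered 22 and 24 came from mice whose genotype is written Setd2-CD4 cre, a deletion of Setd2 by the Cre recombinase under control of the CD4 gene, which acts from a stage of thymic development before the CD4+ and CD8+ lineages part. The libraries they were set against, numbered 13 and 15, came from wild-type mice. The labels give neither the exons removed nor the animal behind each library. If both libraries of a genotype share an animal, the p-values reflect technical spread alone.

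Methylation of H3K36 is laid down in steps. Nsd1, Ash1l and other writers place mono- and dimethylation, and Setd2, which travels with elongating RNA polymerase II, makes trimethylation over the bodies of transcribed genes. Kdm2a and Kdm2b remove the lower methylation states and the Kdm4 enzymes remove the higher ones, so transcript levels of both arms bear on the balance of the mark, although this experiment measured RNA and not the mark itself.

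None of the 9 genes differed between the groups past the threshold, in a comparison in which 10.1% of the 13279 genes tested did (edgeR's quasi-likelihood test, Benjamini-Hochberg adjusted p under 0.05). Setd2 itself stood at 0.887 times the wild-type level. The largest difference was that of Kdm2b, 1.28 times the wild-type level, and the adjusted p-values of the 9 genes ran from 0.233 to 0.918. An unadjusted p under 0.05 was seen for 0 of the 9 genes, against 31.6% of all genes, and DESeq2 also called 0. All 9 genes passed the filter on low counts.

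Total counts were 15594506 and 15653717 in Setd2-CD4 cre 22 and 24 and 14599957 to 16030869 in the wild-type libraries. Levels are given as CPM, the counts scaled to library size, which is adjusted by the trimmed mean of M values. The T cell genes Cd3d, Cd3e, Cd3g, Cd4, Cd28 and Cd5 summed to 3040 and 2800 CPM in Setd2-CD4 cre and to 2800 and 2670 CPM in wild type, with none past the threshold. Foxp3, the defining factor of Treg cells, stood at 31.9 and 75.8 CPM in Setd2-CD4 cre 22 and 24 and at 242 and 247 CPM in wild type, and it and Il2ra were the 2 of 6 Treg markers that fell in Setd2-CD4 cre. Ctla4 (968 and 835 CPM in Setd2-CD4 cre, 684 and 676 CPM in wild type) and Ikzf2 (221 and 201 CPM in Setd2-CD4 cre, 167 and 165 CPM in wild type) lay above wild type without passing the threshold. The 6 markers summed to 2460 and 2490 CPM in Setd2-CD4 cre and to 2830 and 2790 CPM in wild type, and their part in the levels of the 9 genes was not tested. Markers of B, natural killer, myeloid and erythroid cells summed to under 48 CPM in every library and list. Gamma-delta T cell markers summed to 35.6 and 55.0 CPM in Setd2-CD4 cre, against 19.7 and 19.5 CPM in wild type, and Tcrg-C1 and Tcrg-C2 rose. Trdc (10.1 and 5.81 CPM in Setd2-CD4 cre, 5.09 and 6.57 CPM in wild type) and Tcrg-C4 had overlapping groups and did not pass. Dendritic cell markers summed to 27.4 and 21.1 CPM in Setd2-CD4 cre, against 17.0 and 11.5 CPM in wild type, where Zbtb46 rose, Flt3 fell and Xcr1 and Siglech were at 0 in every library. The part of these markers in the levels of the 9 genes was not tested. In bulk RNA, fewer cells of a type and less RNA per cell cannot be told apart.

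**Figure D1:**
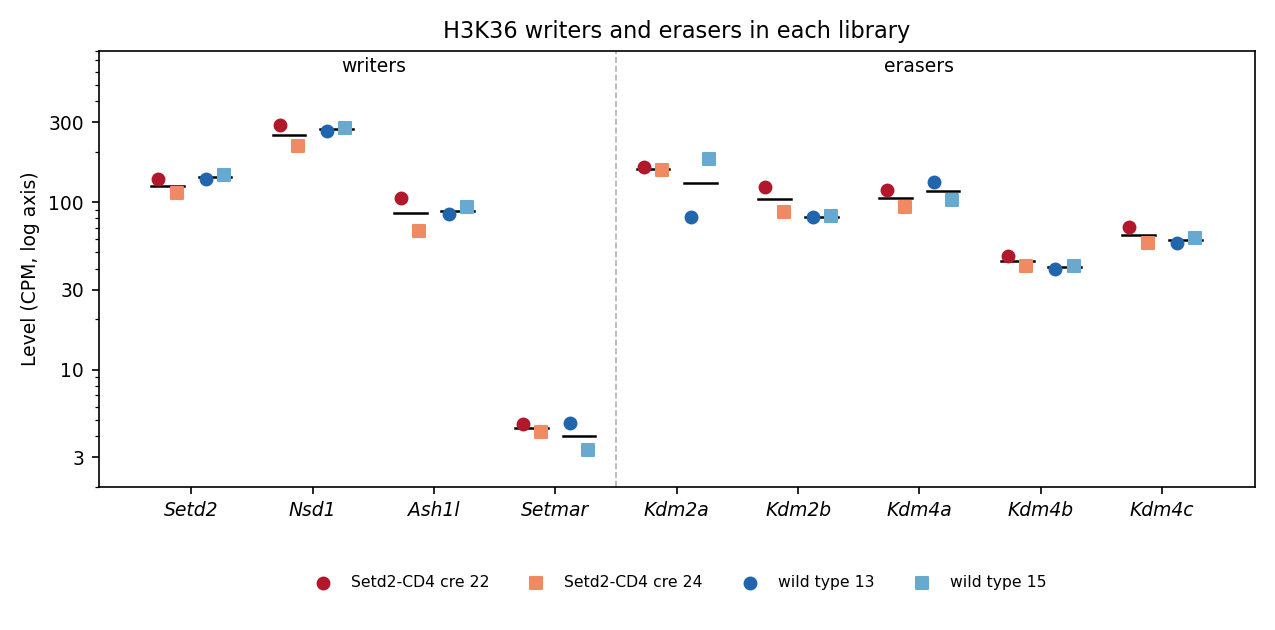
Levels of the 9 genes in each library (CPM, log axis), with Setd2-CD4 cre left of wild type for each gene and a black line at each group mean (n = 2). Setmar lies far below the others at 3.29 to 4.78 CPM, and wild type 13 lies apart from the other libraries for Kdm2a.

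Among the writers, the targeted Setd2 lies on the plus strand of chromosome 9 (110532597 to 110618633, GRCm38, ENSMUSG00000044791). It had 2050 and 1775 counts in Setd2-CD4 cre 22 and 24, against 2233 and 2171 counts in wild type 13 and 15. On the CPM scale these were 137 and 113 in Setd2-CD4 cre and 137 and 146 in wild type. Setd2-CD4 cre 22 matched wild type 13, and only Setd2-CD4 cre 24 lay below both wild-type libraries, so the groups overlapped. The log2 fold change was -0.17 (SE 0.14, adjusted p = 0.436). Its 95% interval covered folds from 0.701 to 1.12, so a 2-fold loss of the gene's total count lay outside it. In this report, a fit with a library left out has 1 library in a group. Its adjusted p therefore takes the spread between libraries from the other group. Without Setd2-CD4 cre 22 the log2 fold change was -0.31 (adjusted p = 0.0789), and without Setd2-CD4 cre 24 it was -0.05.

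In the GENCODE M21 annotation, the longest coding transcript of Setd2 (8350 bases, of which 7611 are coding) has 21 exons. Exon 3 holds 51.3% of its length, and 17 of the 21 exons hold under 3% each. Setd2 averaged 125 ± 16.9 CPM in Setd2-CD4 cre and 141 ± 6.21 CPM in wild type (SD, n = 2 each). A transcript of the same strand, Gm42763, lies within the span of Setd2 without sharing exonic bases and had 20 and 4 counts in Setd2-CD4 cre and 0 and 1 in wild type. No counts per exon were used here, so the state of the locus was not tested.

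**Figure D2:**
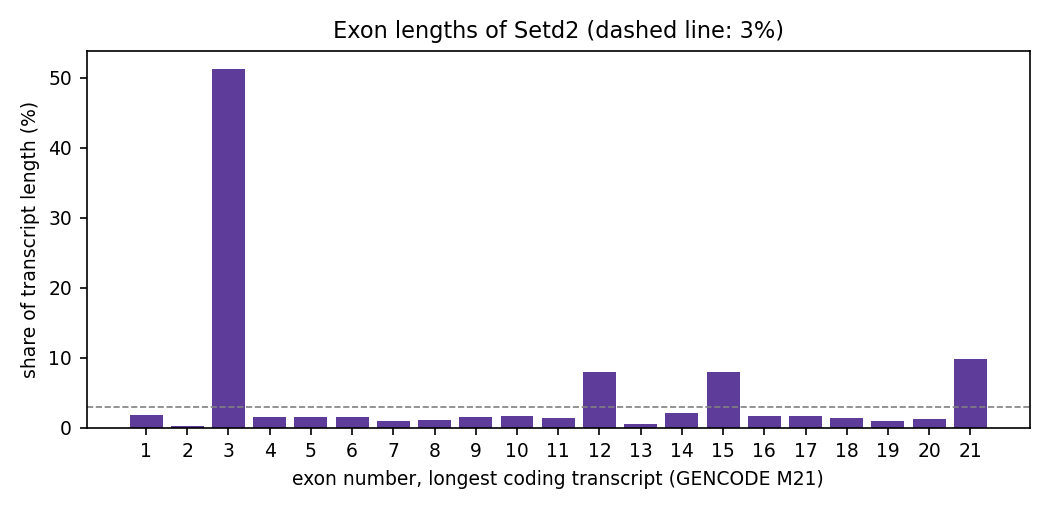
Share of the longest coding Setd2 transcript (%, vertical axis) held by each exon (horizontal axis), with a dashed line at 3%. Exon 3 holds 51.3%, exons 12, 15 and 21 hold 7.94, 8.02 and 9.77%, and the 17 others lie under the line.

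Transcripts were still counted from the Setd2 locus in both Setd2-CD4 cre libraries, and the sequence at its start is shown for that reason. It runs from 250 bases before to 50 bases after the annotated start (RefSeq, GRCm38.p6, chr9:110532347-110532646, plus strand), with each CG dinucleotide in capitals.
Setd2: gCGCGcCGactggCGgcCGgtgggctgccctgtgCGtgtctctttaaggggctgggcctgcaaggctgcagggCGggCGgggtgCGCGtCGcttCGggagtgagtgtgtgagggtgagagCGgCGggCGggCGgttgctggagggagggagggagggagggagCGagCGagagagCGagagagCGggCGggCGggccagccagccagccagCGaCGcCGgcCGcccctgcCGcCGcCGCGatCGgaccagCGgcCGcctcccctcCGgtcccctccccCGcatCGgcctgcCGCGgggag
The window is 77.3% G and C and holds 38 CG dinucleotides, where the median of 32851 promoter windows of the same length is 7.0 and few windows have more. The GC-box letters GGGCGG were found 7 times on both strands together, and 35.7% of all windows hold them at least once. The letters CCAAT (in 37.4% of windows), TATAAA (13.6%), CCGGAAG, an ETS core (8.86%), and GGCGGGAA, an E2F motif (2.19%), were not in this window. Of the 9 genes, 5 had an entry in the promoter table.

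Nsd1 (ENSMUSG00000021488, chromosome 13, 55209782 to 55318325, plus strand), a writer of dimethylation whose human counterpart is mutated in Sotos syndrome, was the most abundant of the 9 genes by count. It measured 288 and 216 CPM in Setd2-CD4 cre 22 and 24, against 267 and 278 CPM in wild type 13 and 15. The Setd2-CD4 cre libraries lay on either side of both wild-type libraries. The log2 fold change was -0.11 (SE 0.16, adjusted p = 0.658), with an interval of 0.712- to 1.2-fold. It turned to 0.076 without Setd2-CD4 cre 24 and was -0.32 without Setd2-CD4 cre 22 (adjusted p = 0.0535).

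Ash1l (ENSMUSG00000028053, chromosome 3, 88950622 to 89079375, plus strand), a trithorax-group writer of dimethylation, measured 106 and 67.02 CPM in Setd2-CD4 cre 22 and 24, against 84.3 and 93.3 CPM in wild type 13 and 15. Its Setd2-CD4 cre libraries again lay on either side of wild type, 1.58-fold apart, a gap exceeded by 5.64% of the 7788 genes with a mean of 20 or more CPM. The log2 fold change was -0.04 (SE 0.22, adjusted p = 0.918). It was 0.25 without Setd2-CD4 cre 24, 0.03 without wild type 15 and -0.40 without Setd2-CD4 cre 22. Ash1l shares 352 exonic bases, 2.37% of its annotated exons, with Dap3 on the opposite strand, which had 912 to 1049 counts, and the use of strand in counting is not given in the sources used here.

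Setmar (ENSMUSG00000034639, chromosome 6, 108065045 to 108077122, plus strand), a SET-domain protein reported to dimethylate the same lysine, was the scarcest. It had 71 and 66 counts in Setd2-CD4 cre 22 and 24, against 78 and 49 counts in wild type 13 and 15, or 4.75 and 4.21 against 4.78 and 3.29 CPM. The counts of all 4 libraries have overlapping 95% Poisson intervals, of which the lowest is 36.3 to 64.8 counts and the highest 61.7 to 97.3 counts. Its log2 fold change of 0.15 (SE 0.30, adjusted p = 0.763) had an interval of 0.676- to 1.82-fold and was -0.10 without wild type 15. These intervals on counts cover counting error only.

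**Figure D3:**
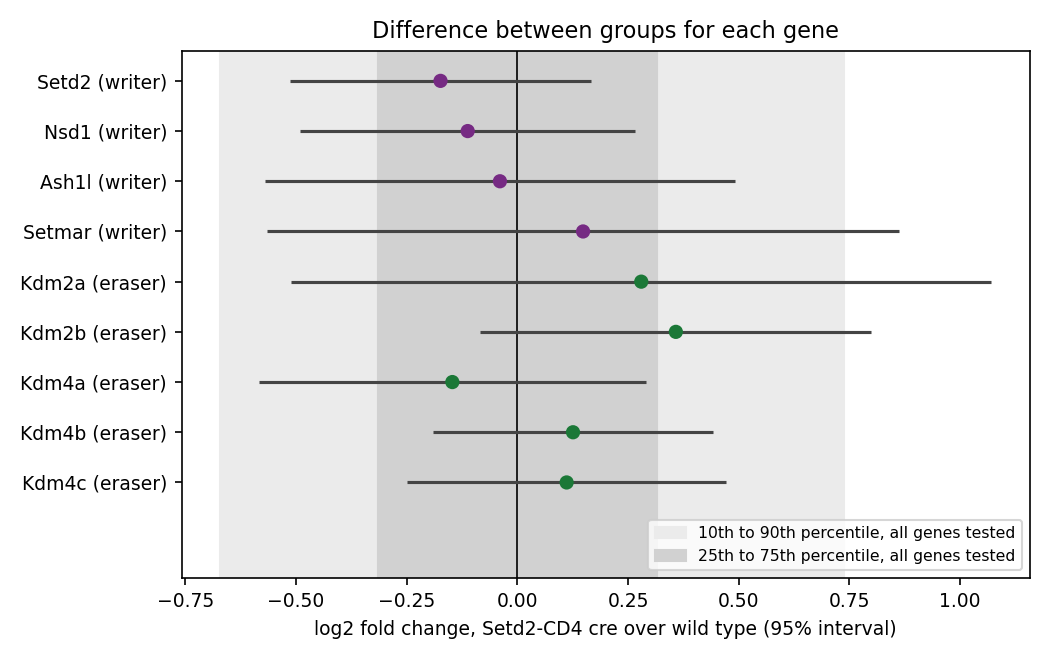
Log2 fold change of each gene, Setd2-CD4 cre over wild type, with its 95% interval from the edgeR fit (purple, writers; green, erasers), over bands that hold the middle of all 13279 genes tested. All 9 intervals cross 0, and that of Kdm2a is the widest upward, reaching 2.10-fold.

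The erasers of the lower methylation states were the genes with the largest fitted differences. Kdm2b (ENSMUSG00000029475, chromosome 5, 122870665 to 122989823, minus strand), a demethylase that also binds unmethylated CpG islands and brings a Polycomb repressive complex to them, had 1838 and 1361 counts in Setd2-CD4 cre 22 and 24, against 1332 and 1224 counts in wild type 13 and 15. These were 123 and 86.9 CPM in Setd2-CD4 cre and 81.6 and 82.1 CPM in wild type. Both Setd2-CD4 cre libraries lay above both wild-type libraries, with Setd2-CD4 cre 22 far above and Setd2-CD4 cre 24 just above. The log2 fold change was 0.36 (SE 0.19, adjusted p = 0.233), with an interval of 0.944- to 1.74-fold. It was 0.58 without Setd2-CD4 cre 24 and 0.10 without Setd2-CD4 cre 22, each in a fit with 1 Setd2-CD4 cre library.

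The 6 B cell markers summed to 47.6 and 29.2 CPM in Setd2-CD4 cre 22 and 24 and to 18.7 and 18.1 CPM in wild type 13 and 15. None of the 6 passed the threshold and none was at 0, and their part in the level of Kdm2b was not tested. Kdm2b also shares exonic bases with genes on the opposite strand. These are Rnf34 (5.77% of the exons of Kdm2b), with 533 and 652 counts in Setd2-CD4 cre and 631 and 604 counts in wild type, and A930024E05Rik (1.83%), with 276 and 350 counts in Setd2-CD4 cre and 205 and 192 counts in wild type. Their part in the level of Kdm2b was not tested.

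Kdm2a (ENSMUSG00000054611, chromosome 19, 4314419 to 4398285, minus strand), the paralog of Kdm2b, had 2424 and 2420 counts in Setd2-CD4 cre 22 and 24, against 1329 and 2676 counts in wild type 13 and 15. On the CPM scale these were 162 and 155 in Setd2-CD4 cre and 81.5 and 180 in wild type. Wild type 13 alone lay apart, below every other library, and wild type 15 was the highest. The 2.20-fold gap between the wild-type libraries was exceeded by 0.578% of the 7788 genes with a mean of 20 or more CPM, whose median gap was 1.07-fold. The difference between the groups therefore took its direction from 1 library. With all libraries the log2 fold change was 0.28 (SE 0.33, adjusted p = 0.594). It was -0.19 when wild type 13 was left out and 0.95 when wild type 15 was (adjusted p = 0.104). No annotated gene overlaps Kdm2a.

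The erasers of the higher methylation states, which also act on H3K9, stood close to their wild-type levels. Kdm4a (ENSMUSG00000033326, chromosome 4, 118136957 to 118180043, minus strand) measured 118 and 93.1 CPM in Setd2-CD4 cre 22 and 24, against 132 and 102 CPM in wild type 13 and 15. The libraries of a group differed by a similar factor, 1.27-fold in Setd2-CD4 cre and 1.29-fold in wild type, and they overlapped. The log2 fold change was -0.15 (SE 0.18, adjusted p = 0.614) and turned to 0.039 without wild type 13 and to 0.01 without Setd2-CD4 cre 24.

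Kdm4b (ENSMUSG00000024201, chromosome 17, 56326062 to 56402870, plus strand) measured 47.5 and 41.7 CPM in Setd2-CD4 cre 22 and 24, against 40.0 and 41.7 CPM in wild type 13 and 15. Its groups did not overlap, but Setd2-CD4 cre 24 and wild type 15 differed by under 0.1 CPM. Kdm4b had the narrowest interval of the 9 genes, 0.876- to 1.36-fold around a log2 fold change of 0.13 with an SE of 0.13 and an adjusted p of 0.549. Kdm4c (ENSMUSG00000028397, chromosome 4, 74242497 to 74405860, plus strand) measured 70.6 and 57.1 CPM in Setd2-CD4 cre 22 and 24, against 56.9 and 61.3 CPM in wild type 13 and 15. Its groups overlapped. The fitted log2 difference of 0.11 (SE 0.15, adjusted p = 0.643) was -0.040 without Setd2-CD4 cre 22.

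Across the 9 genes, 5 fitted differences were above 0 (Setmar, Kdm2a, Kdm2b, Kdm4b and Kdm4c) and 4 below (Setd2, Nsd1, Ash1l and Kdm4a). Their median log2 fold change was 0.11 and the median size 0.15, while over all genes tested these were -0.0013 and 0.32, and the median size was 0.25 over the 7788 genes with a mean of 20 or more CPM. For 2 of the 9 genes the groups did not overlap (Kdm2b and Kdm4b, both higher in Setd2-CD4 cre), where 63.8% of all genes tested did not overlap, 31.1% with Setd2-CD4 cre higher and 32.7% with it lower. The 4 writers summed to 536 and 400.4 CPM in Setd2-CD4 cre 22 and 24, against 493 and 520 CPM in wild type 13 and 15. The 5 erasers summed to 521 and 433 CPM in Setd2-CD4 cre 22 and 24, against 392 and 467 CPM in wild type 13 and 15. The ratio of summed writer to summed eraser CPM was 1.03 and 0.924 in Setd2-CD4 cre and 1.26 and 1.11 in wild type. It was highest in the library with the low Kdm2a level. The writers Nsd2 and Nsd3, paralogs of Nsd1, are not in these sums. Nsd3 alone measured 579 and 398 CPM in Setd2-CD4 cre 22 and 24, against 352 and 339 CPM in wild type 13 and 15. Nsd2 measured 222 and 207 CPM, against 255 and 295 CPM. The ratio therefore describes the 9 genes only, with no scaling to gene length. The smallest p of an exact permutation test with 2 libraries a group is 0.333, and none was run on these sums.

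All 9 genes had a higher level in Setd2-CD4 cre 22 than in 24, which held for 55% of the 7788 genes with a mean of 20 or more CPM. This order was not particular to the 9 genes. It was seen in all but Kmt5b of 13 methyltransferases of other histone lysines. It was also seen in all but Riox2 of 14 demethylases of other histone lysines and related JmjC proteins. Among the other enzymes linked to H3K36 methylation, Nsd2, Nsd3 and Setd5 had this order. Smyd2, Prdm9, Kdm4d, Kdm8 and Riox1 had the opposite order, as did the 2 genes of histone H3.3. Lists of elongation genes, partners of Kdm2b and Ash1l, H3K9 methyltransferases and cofactor enzymes, described below, held genes of both orders. The gap was narrow for Kdm2a (1.05-fold) and Setmar (1.13-fold) and wide for Ash1l (1.58-fold), Kdm2b (1.42-fold) and Nsd1 (1.33-fold), where the median of those 7788 genes was 1.16-fold. Between the wild-type libraries, Kdm2b (1.01-fold), Nsd1 (1.04-fold) and Kdm4b (1.04-fold) lay close together, and Kdm2a (2.20-fold), Setmar (1.45-fold) and Kdm4a (1.29-fold) did not. The CD8 T cell markers Cd8a and Cd8b1 summed to 182 and 78.4 CPM in Setd2-CD4 cre 22 and 24. Their sums in wild type 13 and 15 were 125 and 183 CPM. A list of 12 proliferation genes summed to 5520 and 6220 CPM in Setd2-CD4 cre, against 7350 and 7820 CPM in wild type. Of these genes, 3 were called lower, where 4.59% of all genes tested were, and Ccnb1 lay above wild type without passing the threshold. The part of both lists in the levels of the 9 genes was not tested.

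**Figure D4:**
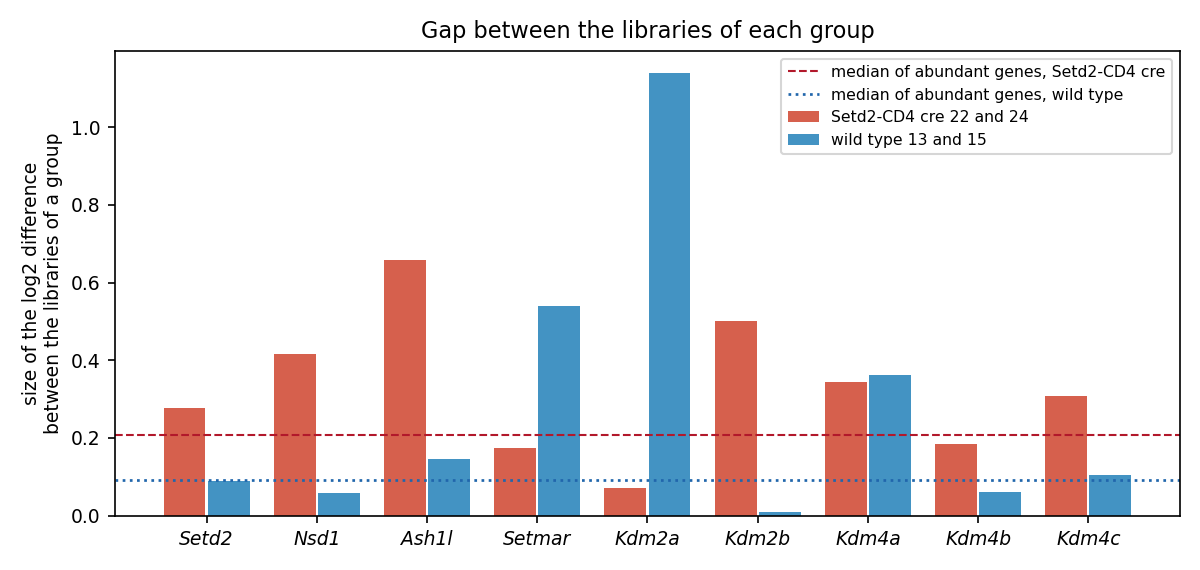
Size of the log2 difference between the libraries of each group (vertical axis) for each of the 9 genes, with Setd2-CD4 cre bars left of wild-type bars and lines at the medians of the 7788 genes with a mean of 20 or more CPM. Ash1l has the tallest Setd2-CD4 cre bar and Kdm2a the tallest wild-type bar.

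**Figure D5:**
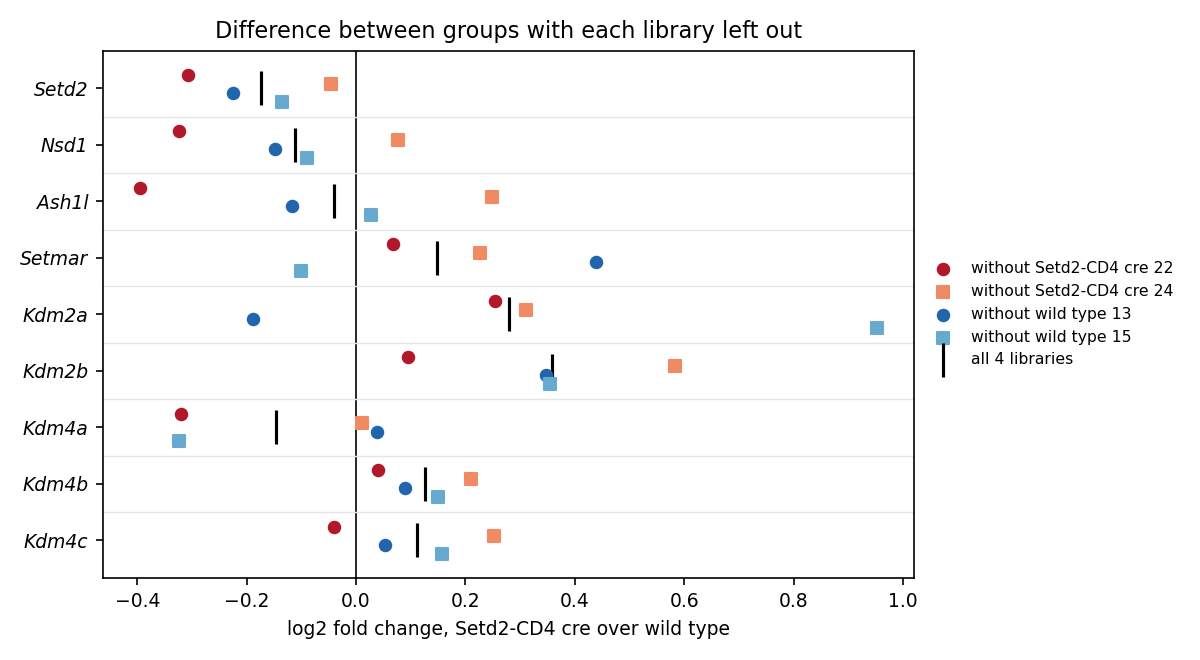
Log2 fold change of each gene (horizontal axis), Setd2-CD4 cre over wild type, with all 4 libraries (black bar) and with each library left out in turn (points). Points fall on both sides of 0 for Nsd1, Ash1l, Setmar, Kdm2a, Kdm4a and Kdm4c, and Kdm2a spans the widest range, -0.19 to 0.95.

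Levels of different genes were compared per length. On the scale of the deposited FPKM (fragments per kilobase of length, scaled to depth), averaged over the 4 libraries, the order was Nsd1 (20.5), Kdm4a (12.1), Kdm4c (9.75), Setd2 (6.61), Kdm2a (6.58), Kdm4b (4.96), Kdm2b (4.95), Ash1l (4.94) and Setmar (2.19). In this order the ranges over libraries overlapped between Kdm4a and Kdm4c, and in each step from Setd2 down to Ash1l. Nsd1 (16.9 to 22.2 FPKM) and Setmar (1.73 to 2.50 FPKM) stood clear of their neighbours.

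The order depends on the length used for each gene. The length implied by count and FPKM was 12784 bases for Nsd1, the length of its longest coding transcript, but 20165 bases for Setd2, 2.41 times that transcript, and 18787 bases for Kdm2b, 3.63 times. On the scale of CPM per kilobase of the longest coding transcript, Kdm4a came first (23.9), then Nsd1 (20.5), Kdm2b (18.0), Kdm2a (16.8), Setd2 (16.0) and Kdm4c (14.7), with overlapping ranges at each step. Kdm4b (9.34), Ash1l (7.52) and Setmar (2.64) were the lowest on this scale, with Kdm4b clear of Kdm4c and Setmar clear of Ash1l.

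By the Euclidean distance between log2 CPM centred over the 4 libraries, the genes most like Setd2 among 7502 others with a mean of 20 or more CPM were Lrba (0.0119), Clcn3 (0.0275), Ipo5 (0.0284), Atl3 (0.0285) and Atp2c1 (0.0295). Lrba, which encodes a vesicle-trafficking protein, measured 105 and 86.4 CPM in Setd2-CD4 cre 22 and 24, against 104 and 110 CPM in wild type 13 and 15. Among the other H3K36 enzymes described, Nsd1 was the nearest to Setd2 (0.114, with 2.57% of genes nearer) and Kdm2a the farthest (0.945, with 92.7% nearer). Lrba was chosen for its small distance, so its pattern resembles that of Setd2 by construction. Its level in Setd2-CD4 cre 22 matched wild type 13 and that in Setd2-CD4 cre 24 lay below wild type. These distances rest on 4 libraries and describe them only. The 10 tested genes nearest to Setd2 on chromosome 9, all within 247 kb, had log2 fold changes from -0.56 to 0.77. They gave 0 calls in either direction, where 10.1% of all genes tested were called, so 10 genes are too few to tell.

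The other enzymes linked to this mark were measured in the same fit. Of 8 genes, 1 fell and none rose in edgeR and in DESeq2. Smyd2, a lysine methyltransferase of histones and other proteins, fell to 11.04 and 13.5 CPM in Setd2-CD4 cre, against 21.7 and 21.1 CPM in wild type (log2 fold change -0.80, SE 0.18, adjusted p = 0.0425). It missed the threshold when either wild-type library was left out (adjusted p = 0.183 without 13, 0.202 without 15). The paralogs of Nsd1, named here after their values were seen, went opposite ways without passing the threshold. Nsd2 measured 222 and 207 CPM in Setd2-CD4 cre and 255 and 295 CPM in wild type (log2 fold change -0.36, adjusted p = 0.111), and Nsd3, the most abundant of the group by count, measured 579 and 398 CPM in Setd2-CD4 cre and 352 and 339 CPM in wild type (0.50, adjusted p = 0.12). For Nsd3, the fitted log2 difference was 0.74 on dropping Setd2-CD4 cre 24 but 0.21 on dropping 22, each with 1 Setd2-CD4 cre library.

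Setd2 binds the elongating polymerase, and 19 genes of transcription elongation gave 1 rise and 1 fall. Supt4a, a subunit of the elongation factor DSIF, rose to 135 and 112 CPM in Setd2-CD4 cre, against 45.8 and 41.9 CPM in wild type (log2 fold change 1.49, SE 0.15, adjusted p = 0.0106), and it passed with each library left out (adjusted p up to 0.0277). GENCODE lists a processed pseudogene, Supt4b on chromosome 10, which may share reads with it. Polr2a, the largest subunit of RNA polymerase II, fell to 254 and 258 CPM in Setd2-CD4 cre. Its wild-type levels were 354 and 382 CPM (log2 fold change -0.52, SE 0.11, adjusted p = 0.0377). Polr2a missed the threshold when either wild-type library was dropped, although the fall remained (-0.58 on dropping 13, -0.47 on dropping 15). The 17 others did not pass in edgeR, and the median of the list was -0.0087. DESeq2 called 2 higher and 3 lower in this list.

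Of the 14 demethylases of other histone lysines and related JmjC proteins, 1 rose and none fell in edgeR, while DESeq2 called 2 higher. The edgeR call was Kdm3a, an H3K9 demethylase, at 217 and 149.9 CPM in Setd2-CD4 cre, against 98.9 and 111 CPM in wild type (log2 fold change 0.81, SE 0.19, adjusted p = 0.048), which did not pass with wild type 13 left out (0.206) or 15 (0.166). No gene passed in edgeR among 11 partners of Kdm2b and Ash1l, 6 H3K9 methyltransferases, 13 methyltransferases of other histone lysines, 11 enzymes of S-adenosylmethionine and 2-oxoglutarate metabolism, which supply or use the cofactors of both arms, and the 2 genes of histone H3.3. An unadjusted edgeR p under 0.05 was seen for 2 of the partners, 1 of the H3K9 methyltransferases and 3 of the cofactor enzymes. It was also seen for 8 of the 19 elongation genes, 4 of the 14 demethylases and 4 of the 8 other H3K36-linked enzymes. None was seen for the methyltransferases of other lysines or the H3.3 genes. Over all genes tested the share was 31.6%. Among the lists with no edgeR call, DESeq2 called 2 cofactor enzymes higher and no other gene. The 13 methyltransferases of other lysines had log2 fold changes from -0.135 to 0.31 with all 4 libraries. In all, 2 of the 84 genes of the lists described rose and 2 fell in edgeR, where 5.53% of all genes tested rose and 4.59% fell. In the pathway annotation of the deposited table, Setd2, Nsd1, Ash1l and Setmar stand in lysine degradation, whose 50 tested genes gave 1 rise and 0 falls.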

How the data were processed

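RNA was measured in 4 libraries, grouped by the genotype in the labels. The submitters' processing notes name the aligner Bowtie2, the quantifier RSEM and the genome GRCm38.p6 (mm10), with no version of either tool, annotation release or use of strand. The deposited table held whole-number counts per gene and, from the authors, FPKM. Counts were fitted in edgeR 4.0.16 (R 4.3.3) over all genes: filterByExpr (minimum count 10, total 15), trimmed mean of M values (factors 0.959 to 1.022), glmQLFit and glmQLFTest, two-sided, no covariate, Benjamini-Hochberg adjustment over 13279 genes, threshold 0.05. The standard error is the log2 fold change over the square root of F, and the 95% interval uses the fit's degrees of freedom (5.63 to 6.63). The biological coefficient of variation was 0.157. Replicates differed beyond counting noise (chi-square per degree of freedom 30.6 in Setd2-CD4 cre and 9.9 in wild type), so each library counted as 1 replicate. Log2 CPM used a prior count of 2. Gene structures came from GENCODE M21 (GRCm38), whose spans of the 9 genes equal those in the table. The fits were checked on simulated data.

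The members and lists were chosen with earlier results of these data known. The text names the 9 genes whatever their values, up to 3 genes of each list past the threshold by adjusted p, and the 5 genes most like Setd2. Alternatives were other scalings and filters, robust dispersion, DESeq2 1.42.0, limma 3.58.1 (voom, and log2(FPKM + 1) and log2(FPKM + 0.1)) and each library left out. Figures were drawn with matplotlib 3.10.9.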

Additional observations from a re-analysis of the deposited data

How the results depend on the processing

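No member passed the threshold under the 10 other scalings, filters, tests and units, and all 90 fitted directions stayed as in the main test. With 1 library left out, the direction turned in 8 of 36 fits. With a library left out, the log2 fold changes ran from -0.32 to 0.076 for Nsd1, -0.40 to 0.25 for Ash1l, -0.10 to 0.44 for Setmar, -0.19 to 0.95 for Kdm2a, -0.32 to 0.039 for Kdm4a and -0.040 to 0.25 for Kdm4c. The direction turned for Nsd1 (0.076), Ash1l (0.25) and Kdm4a (0.01) without Setd2-CD4 cre 24, Kdm4c (-0.040) without Setd2-CD4 cre 22, Kdm2a (-0.19) and Kdm4a (0.039) without wild type 13, and Ash1l (0.03) and Setmar (-0.10) without wild type 15. The only call was Kdm2b without Setd2-CD4 cre 24, so the count of higher members ran from 0 to 1. The log2 fold change of Setd2 was -0.31 to -0.05 with a library left out and -0.23 to -0.17 otherwise. Over all genes, the 734 higher genes became 457 with log2(FPKM + 0.1), 445 with log2(FPKM + 1) and 1261 with no filter, where the 610 lower genes became 1088. With a library left out, 120 to 2122 genes were higher and 70 to 2002 lower. The library total alone gave 674 higher and 771 lower. Of 224 counts over the context lists, 40 differed from the main count by over 1.5 times or changed to or from 0. With a library left out, 1 to 5 elongation genes were higher and 0 to 4 lower, and 0 to 7 of the other demethylases were higher; under the other settings these were 1 to 2, 1 to 3 and 0 to 2. Smyd2 did not pass with upper-quartile scaling or FPKM (adjusted p = 0.0502 to 0.0542), nor Kdm3a with voom or FPKM (0.0511 to 0.078). The causes were not tested, except that fits with a library left out have 1 sample in a group, assumed to vary like the other. No paired analysis was possible because the groups share no replicate number. Depth limits Setmar, with 49 to 78 counts.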
